A study of Mus musculus with 8 samples.

Results

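A set of 36 astrocyte genes was followed in the forebrain of mice whose microglia had been removed: 16 genes that mark astrocyte identity and 20 genes that astrocytes are known to switch on when they become reactive. The members were taken by gene symbol from a deposited table of read counts with 53278 symbols, and all 36 were found and had enough counts to be tested, among 20140 genes tested. Bulk RNA of the whole forebrain came from 8 male C57BL/6J mice aged 10 to 20 weeks with no other genetic change named in the labels. The 4 depleted mice ate food with PLX3397, a kinase inhibitor that blocks CSF1R and so removes microglia, for 9 days, while the 4 control mice had control food. PLX3397 acts on the whole animal and is also known to inhibit some related kinases, so the depleted group is a model of drug treatment as well as of microglial loss. The labels give each sample as a separate mouse, so errors are the SD over 4 mice of a group, except where a standard error (SE) of the fitted model is given.

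Astrocytes take up glutamate and potassium, carry water and ions at the vessel wall, and are coupled to each other by gap junctions. Under injury or inflammation they enlarge their filament network and express secreted and surface proteins that are scarce in healthy tissue. In mouse, genes raised by many kinds of injury are called pan-reactive, those raised mainly after lipopolysaccharide A1, and those raised mainly after ischaemia A2. Microglia are known to prompt the A1 state in mouse through IL-1α, TNF and the complement protein C1q, so the set bears on the state of astrocytes once these cells are gone.

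The promoters of 4 members are shown because the results turn on these genes: Gfap, Serpina3n and Gbp2 were high together in 1 depleted mouse, and Lcn2 had the largest fold change of the set. Each is the 250 bases before the RefSeq start (GRCm38.p6), 5′ to 3′ on the strand of the gene: Gfap at chr11:102897201-102897450 on the minus strand, Serpina3n at chr12:104406458-104406707 on the plus strand, Gbp2 at chr3:142620413-142620662 on the plus strand and Lcn2 at chr2:32387740-32387989 on the minus strand. Capitals mark a match to the NF-kB letters (GGG, any 2 bases, TT, any 1 base, CC) in Serpina3n, 171 to 162 bases before the start, and a match on the opposite strand to the interferon response letters (GAAA, any 2 bases, GAAA) in Gbp2, 59 to 50 bases before it.
Gfap: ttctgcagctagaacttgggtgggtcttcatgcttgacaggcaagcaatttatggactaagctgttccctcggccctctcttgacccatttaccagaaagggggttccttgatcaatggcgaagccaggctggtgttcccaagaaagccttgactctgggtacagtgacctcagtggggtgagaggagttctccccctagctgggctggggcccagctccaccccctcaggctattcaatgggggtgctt
Serpina3n: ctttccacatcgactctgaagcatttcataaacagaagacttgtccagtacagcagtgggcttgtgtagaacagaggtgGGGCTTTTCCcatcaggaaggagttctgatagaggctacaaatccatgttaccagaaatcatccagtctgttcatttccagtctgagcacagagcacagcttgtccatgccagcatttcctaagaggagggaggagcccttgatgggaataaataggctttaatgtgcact
Gbp2: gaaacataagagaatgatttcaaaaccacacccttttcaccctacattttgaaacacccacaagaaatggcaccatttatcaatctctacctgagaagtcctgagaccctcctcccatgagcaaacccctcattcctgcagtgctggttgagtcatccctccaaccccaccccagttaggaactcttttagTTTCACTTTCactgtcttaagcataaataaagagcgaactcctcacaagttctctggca
Lcn2: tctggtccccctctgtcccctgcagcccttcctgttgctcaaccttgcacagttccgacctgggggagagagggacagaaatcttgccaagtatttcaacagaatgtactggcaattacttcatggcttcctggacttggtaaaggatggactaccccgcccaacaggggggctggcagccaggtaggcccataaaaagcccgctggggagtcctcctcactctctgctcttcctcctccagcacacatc
Both strands were searched for these letters and for the STAT letters (TTC, any 3 bases, GAA), and none of the 3 was found in the Gfap and Lcn2 windows. The table held promoters of 31 of the 36 members. At least 1 start of Aldoc, Emp1, Slc1a3, Sphk1 and Steap4 held the STAT letters, at least 1 of Gbp2, Glul, Srgn and Tm4sf1 the interferon response letters, and at least 1 of Serpina3n, Steap4 and Vim the NF-kB letters. Of 32841 promoter windows of all genes, 7.02%, 2.98% and 4.11% held the STAT, interferon response and NF-kB letters. The match is one of letters, and genes with several starts had several chances of one.

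Total counts were between 48455538 and 68406688 per mouse, and levels are given as CPM, counts scaled to library size with TMM factors. Csf1r, the drug target, fell to 1.22 ± 0.609 CPM in depleted mice, against 58.6 ± 5.49 CPM in control mice, and the sum of 10 microglial marker genes was 16.7 to 20.7 CPM in depleted mice, against 195 to 236 CPM in control mice. The forebrain samples differed in the regions they held. Hcrt, a gene of hypothalamic neurons, had 1249 and 2081 counts in depleted mice 2 and 3 but 7 and 4 in depleted mice 1 and 4, and 1578 and 1628 in control mice 2 and 3 but 7 and 12 in control mice 1 and 4. The mean log2 CPM of 10 striatal neuron genes, used as a striatum score, was 7.43, 5.71, 7.73 and 7.31 in depleted mice 1 to 4, against 4.25, 6.67, 6.10 and 5.31 in control mice 1 to 4. Depleted mice 1, 3 and 4 were thus richer in striatal transcripts than every control mouse. In fits with this score as a covariate, its part and that of the treatment therefore cannot be told apart. Bulk counts cannot tell fewer cells of a type from less RNA per cell.

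No astrocyte gene of the set passed the test over all genes. Of the 36 members, 0 were lower and 0 higher at an adjusted p under 0.05 (edgeR quasi-likelihood test, Benjamini-Hochberg over all genes tested), where 1.11% of all genes tested were called lower and 0.0546% higher, 1.16% in all. DESeq2 and limma-voom also called 0 members, with 1.99% and 1.16% of the genes each tested. At an unadjusted p under 0.05 there were 4 members, or 11.1%, and 11.0% of all genes tested. These 4 were Fgfr3 and Gjb6, both lower in depleted mice, and Slc4a4 and Lcn2, both higher. The median log2 fold change, depleted over control, was 0.004 for all 36 members and -0.0004 for all genes tested, and the median size of the change regardless of sign was 0.13 and 0.11.

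Identity and reactive members did not part in direction. Of the 16 identity members 10 had a positive and 6 a negative fold change (median 0.01), and of the 20 reactive members 9 were positive and 11 negative (median -0.07). The mean log2 CPM of the identity members was 7.71, 7.97, 7.78 and 7.68 in depleted mice 1 to 4, against 7.79, 7.74, 7.88 and 7.72 in control mice 1 to 4. For the reactive members it was 2.07, 2.49, 2.20 and 2.20 in depleted mice, against 2.37, 2.23, 2.18 and 1.96 in control mice. Both means overlapped between the groups, and the highest value of each belonged to depleted mouse 2. Their difference, reactive minus identity, was -5.54 ± 0.08 in depleted mice and -5.60 ± 0.16 in control mice on the log2 scale.

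**Figure D1:**
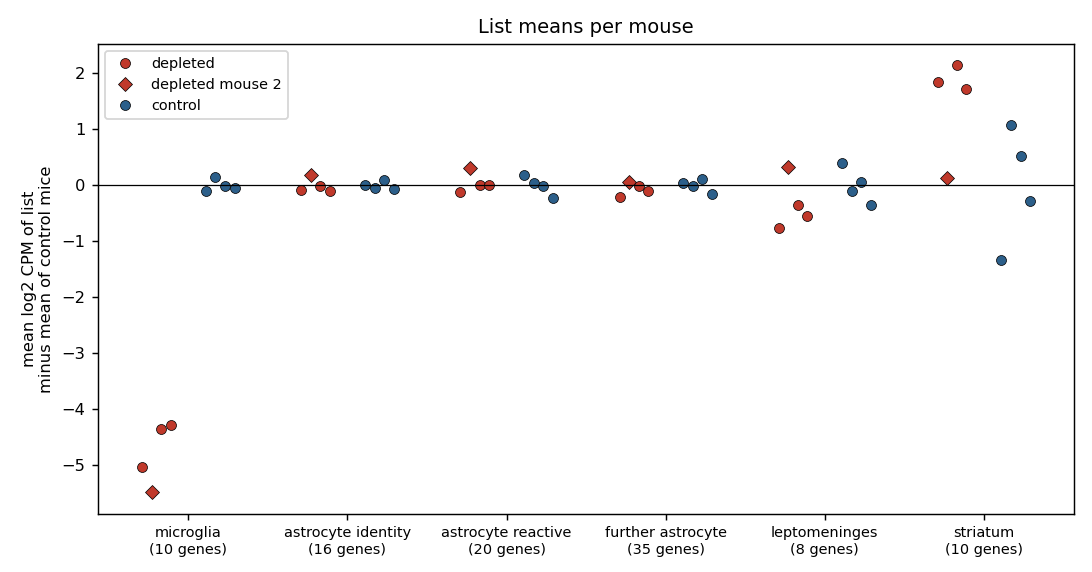
Mean log2 CPM of 6 gene lists per mouse, minus the mean of the 4 control mice (y axis), for depleted (red) and control (blue) mice; the diamond is depleted mouse 2. The microglial list lies more than 4 log2 units below control in all depleted mice, while the astrocyte lists overlap between the groups and the striatum list is spread widely.

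The precision of the fold changes differed between identity and reactive members. The 95% interval of the fold change lay within 2-fold in either direction (log2 values between -1 and 1) for 32 of 36 members, or 88.9%, against 83.0% of all genes tested. The exceptions were Gfap, Lcn2, Steap4 and Cd44. It lay within 0.5 log2 units for 12 of 16 identity members and 7 of 20 reactive members, against 55.7% of all genes tested. The reactive members were the weaker expressed of the set and their standard errors were larger, with a median of 0.21 against 0.10 for identity members. Per kilobase of merged exon, Glul was the most abundant member, at 419 CPM per kb in depleted and 418 CPM per kb in control mice, followed by Aldoc at 221 and 243 and Ndrg2 at 201 and 216 CPM per kb. The first reactive member in that order of control levels was S100a10, in place 11, at 17.5 and 18.3 CPM per kb in depleted and control mice, and Lcn2 was last, at 0.191 and 0.0535 CPM per kb.

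**Figure D2:**
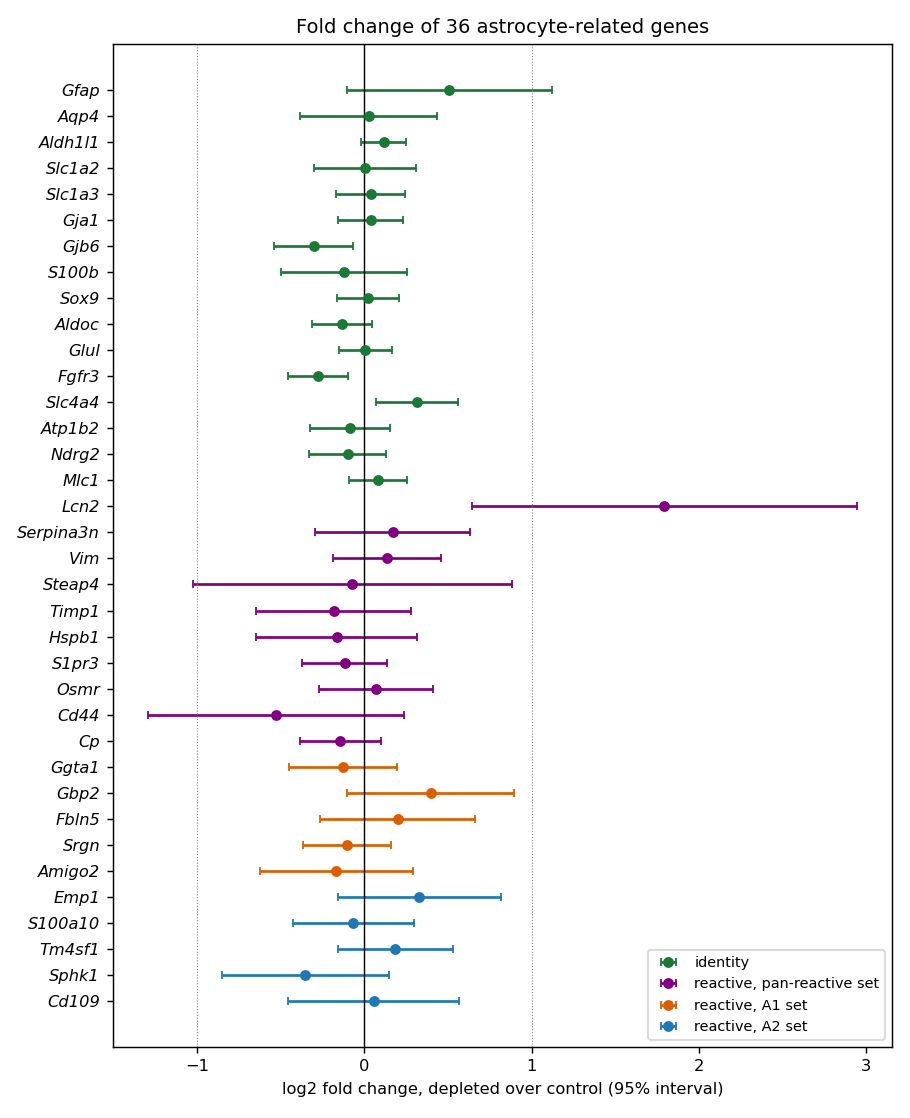
Log2 fold change, depleted over control, with its 95% interval (x axis) for the 36 genes, coloured by set. Most intervals include 0 and lie between the dotted lines at 2-fold; Fgfr3, Gjb6, Slc4a4 and Lcn2 have intervals that leave out 0 before adjustment for all genes.

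Genes of glutamate handling had fold changes close to 0 and did not pass. Slc1a2, the main glutamate transporter of the adult forebrain (GLT-1), had 1967, 1660, 1541 and 1555 CPM in depleted mice 1 to 4, against 1472, 1474, 1632 and 2125 CPM in control mice 1 to 4. The ranges overlapped, with 1 high mouse in each group (log2 fold change 0.004, SE 0.14, adjusted p = 0.995). Slc1a3, which encodes the transporter GLAST, averaged 432 ± 23.1 CPM in depleted and 421 ± 49.3 CPM in control mice (0.04, SE 0.09). Glul, the glutamine synthetase gene that converts the captured glutamate, had 1380, 1403, 1394 and 1395 CPM in depleted mice, against 1415, 1288, 1438 and 1415 CPM in control mice. The 4 depleted mice lay inside the control range (log2 fold change 0.004, 95% interval -0.15 to 0.16), so a change of Glul beyond about 12% in either direction lies outside the interval of 89.9% to 112% of the control level.

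Members at the vessel wall and in ion transport differed by gene. Aqp4, the water channel of astrocyte endfeet, had 97.6, 135, 79.1 and 67.2 CPM in depleted mice, against 87.7, 92.4, 103 and 89.2 CPM in control mice. Its depleted values lay on both sides of the control range (0.03, SE 0.18, adjusted p = 0.975). Slc4a4, the sodium bicarbonate cotransporter that moves acid equivalents across the astrocyte membrane (chromosome 5, 88886818 to 89239653, mm10), had 159, 154, 185 and 151 CPM in depleted mice, against 109, 132, 156 and 126 CPM in control mice. Depleted values were higher on average, but control mouse 3 lay among them. The log2 fold change of Slc4a4 was 0.31 (SE 0.11, adjusted p = 0.345 in edgeR; exact permutation test over the 70 splits of the mice, two-sided, p = 0.0857), and 0.14 once the striatum score was a covariate. Atp1b2, a sodium pump subunit gene, stood at -0.09 (SE 0.11), and Mlc1, which encodes a membrane protein of the endfeet, at 0.08 (SE 0.08).

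The gap junction genes of the set had unlike fold changes, though the difference between them was not tested. Gjb6, which encodes connexin 30 (chromosome 14, 57123303 to 57133611), had 42.3, 59.5, 53.7 and 54.7 CPM in depleted mice, against 65.5, 58.4, 72.5 and 62.9 CPM in control mice. The groups overlapped at depleted mouse 2 and control mouse 2 (log2 fold change -0.30, SE 0.11, adjusted p = 0.343; exact permutation p = 0.0571). Gja1, the connexin 43 gene, averaged 138 ± 13.7 CPM in depleted and 134 ± 11.7 CPM in control mice (0.04, SE 0.09).

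Fgfr3, a fibroblast growth factor receptor gene used as an astrocyte marker, was the member whose groups did not overlap. It lies on chromosome 5, 33721674 to 33737068 (mm10), and shares exon bases with G630022F23Rik on the opposite strand. Its level was 99.3, 122, 102 and 98.8 CPM in depleted mice, against 126, 123, 139 and 124 CPM in control mice. Depleted mouse 2 all but reached the lowest control mouse, and the other depleted mice lay near 100 CPM. The log2 fold change of Fgfr3 was -0.28 (SE 0.08, adjusted p = 0.243), and the exact two-sided permutation test gave p = 0.0286, the smallest these groups allow. Of all genes tested 3.50% were so separated in the lower and 2.28% in the higher direction, or 5.77% in either, and 1 of 36 members is no more than that background. Without depleted mouse 2 Fgfr3 passed, at -0.35 (adjusted p = 0.0249), in a fit that called 3.31% of its genes. It stood at -0.19 (adjusted p = 0.9998) once the striatum score was a covariate.

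The remaining identity members did not pass either. Sox9, the transcription factor gene of astrocyte specification, had 25.4, 32.0, 32.1 and 31.9 CPM in depleted mice, against 30.9, 29.8, 30.0 and 28.8 CPM in control mice (0.02, SE 0.08). Aldh1l1, the folate enzyme gene widely used to label astrocytes, was at 59.4 ± 1.67 CPM in depleted and 54.7 ± 3.74 CPM in control mice (0.12, SE 0.06, adjusted p = 0.520). Aldoc, the aldolase isoform gene of astrocytes, was at 721 ± 51.6 and 793 ± 52.6 CPM in depleted and control mice (-0.14, SE 0.08). Ndrg2 and S100b, which encode a stress-related protein and a calcium-binding protein abundant in astrocytes, stood at -0.10 (SE 0.10) and -0.13 (SE 0.17). The groups overlapped in each of these 5 genes.

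Gfap, the gene of the astrocytic intermediate filament that is raised in reactive astrocytes, had a positive fold change that rested mostly on 1 mouse and did not pass. It lies on chromosome 11, 102887336 to 102900912 (mm10), and had 293, 582, 243 and 223 CPM in depleted mice, against 273, 239, 232 and 200 CPM in control mice. Depleted mouse 2 stood at 247% of the control mean. Depleted mouse 1, at 124%, was also above the highest control mouse (115%), while depleted mice 3 and 4 lay inside the control range. The log2 fold change of Gfap was 0.51 (SE 0.27, adjusted p = 0.544; exact permutation p = 0.257) with all mice and 0.11 (SE 0.12, adjusted p = 0.767) without depleted mouse 2. Adjusted for the striatum score, the log2 fold change of Gfap was 0.89 (adjusted p = 0.432). That score differed between the groups, and depleted mouse 2 had the lowest of its group.

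Among pan-reactive members Lcn2, which encodes the secreted iron-carrier protein lipocalin 2, had the largest fold change and, in control mice, the lowest level. Its raw counts were 40, 21, 16 and 30 in depleted mice, against 14, 5, 9 and 2 in control mice, or 0.725, 0.427, 0.231 and 0.617 CPM against 0.256, 0.103, 0.165 and 0.0370 CPM. The groups overlapped at depleted mouse 3 and control mouse 1. The log2 fold change of Lcn2 was 1.79 (SE 0.52, 95% interval 0.64 to 2.95, adjusted p = 0.239 in edgeR and 0.0569 in DESeq2; exact permutation p = 0.0571), and over 18 alternative fits it ranged from 1.24 to 2.26, with no fit in which it passed. Neutrophils also carry Lcn2. Their markers S100a8 and S100a9 had 0 to 5 and 2 to 25 counts in depleted mice, against 5 to 25 and 2 to 16 in control mice, and Ly6g had 0 counts in every mouse, which allows up to 3 counts per library. In depleted mice every S100a8 count was below the lowest Lcn2 count, and S100a9 was above Lcn2 only in depleted mouse 3 (25 against 16). In control mice the counts of both markers overlapped with those of Lcn2. The part of neutrophils in the Lcn2 counts was not tested.

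The other secreted and structural pan-reactive genes did not pass. Serpina3n, a secreted protease inhibitor gene on chromosome 12, 104406729 to 104414329, had 14.9, 30.9, 18.7 and 16.2 CPM in depleted mice, against 19.9, 16.1, 19.1 and 16.7 CPM in control mice. Again depleted mouse 2 was above every control mouse. Depleted mouse 1 was below every control mouse, and depleted mice 3 and 4 lay inside the control range. The fold change of Serpina3n was 0.17 (log2, SE 0.21, adjusted p = 0.823) with all mice and -0.10 without depleted mouse 2. Adjusted for the striatum score, Serpina3n stood at 0.50 (SE 0.19, adjusted p = 0.9998). The gene belongs to a cluster of close copies, so its counts are uncertain to that extent. Vim, the filament gene vimentin, was at 46.0 ± 7.55 CPM in depleted and 41.9 ± 7.13 CPM in control mice (0.14, SE 0.14). Cp, the copper carrier gene ceruloplasmin, was at 12.5 ± 1.45 and 13.8 ± 1.43 CPM in depleted and control mice (-0.14, SE 0.11), and Hspb1, a small heat shock protein gene, at 6.55 ± 0.652 and 7.35 ± 2.37 CPM (-0.17, SE 0.22). Timp1, an inhibitor of matrix proteases, and Steap4, a metal reductase gene, were below 1 CPM in every mouse, and stood at -0.18 (SE 0.21) and -0.07 (SE 0.43).

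Of the receptor genes, Cd44 depended most on which mice were compared. Cd44 encodes a surface receptor for hyaluronan that reactive astrocytes and leukocytes carry, and lies on chromosome 2, 102811141 to 102901665. It had 3.19, 8.32, 3.49 and 2.55 CPM in depleted mice, against 7.23, 4.43, 6.52 and 7.05 CPM in control mice. Depleted mouse 2 was above every control mouse, and the other depleted mice were below every control mouse. The log2 fold change of Cd44 was -0.53 (SE 0.34, adjusted p = 0.626) in all mice and -1.02 (SE 0.20, adjusted p = 0.0271) without depleted mouse 2. Within the 4 mice with fewer than 100 Hcrt counts, 2 per group, Cd44 stood at -1.30 (adjusted p = 0.0410, in a fit that called 1.52% of its genes), within the 4 mice with more at 0.10 (adjusted p = 0.995), and at 0.07 once the striatum score was a covariate. The part of tissue composition in these values was not tested further. S1pr3, a sphingosine phosphate receptor gene, was at -0.12 (SE 0.11) and Osmr, the oncostatin M receptor gene, at 0.07 (SE 0.15).

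In each A1 and A2 gene the groups overlapped, and none passed. Gbp2, an interferon-induced GTPase gene on chromosome 3, 142620602 to 142638008, which overlaps Mir6381 on the opposite strand, had 2.65, 5.55, 3.26 and 3.06 CPM in depleted mice, against 2.67, 3.17, 2.59 and 2.59 CPM in control mice. Once more depleted mouse 2 stood apart from the other mice (log2 fold change 0.40, SE 0.22, adjusted p = 0.564, and 0.13 without that mouse). Adjusted for the striatum score, Gbp2 stood at 0.61 (SE 0.26, adjusted p = 0.9998). The other A1 genes were Ggta1, a galactosyltransferase gene (-0.13, SE 0.14), Fbln5, an elastic fibre protein gene (0.20, SE 0.21), Srgn, the proteoglycan core gene of secretory granules (-0.10, SE 0.12), and Amigo2, a cell adhesion gene (-0.17, SE 0.20). Srgn, which endothelial and blood cells also express, had 4.50 CPM in depleted mouse 1 and between 5.88 and 6.37 CPM in the other 7 mice. Among A2 genes, the membrane protein gene Emp1 stood at 0.33 (SE 0.22), the annexin partner gene S100a10 at -0.07 (SE 0.16), the surface protein gene Tm4sf1 at 0.18 (SE 0.15), the sphingosine kinase gene Sphk1 at -0.36 (SE 0.22) and Cd109, a surface protein gene of the complement-like family, at 0.06 (SE 0.23). In every one of these 10 genes the adjusted p was above 0.5. Sphk1 was highest in control mouse 1 (6.70 CPM, against 3.65 to 4.27 CPM in the other controls) and stood at -0.11 without that mouse. Sphk1 turned to 0.18 once the striatum score was a covariate, and stood at -0.70 in the mice with fewer than 100 Hcrt counts and 0.05 in those with more, without passing in any of these fits.

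**Figure D3:**
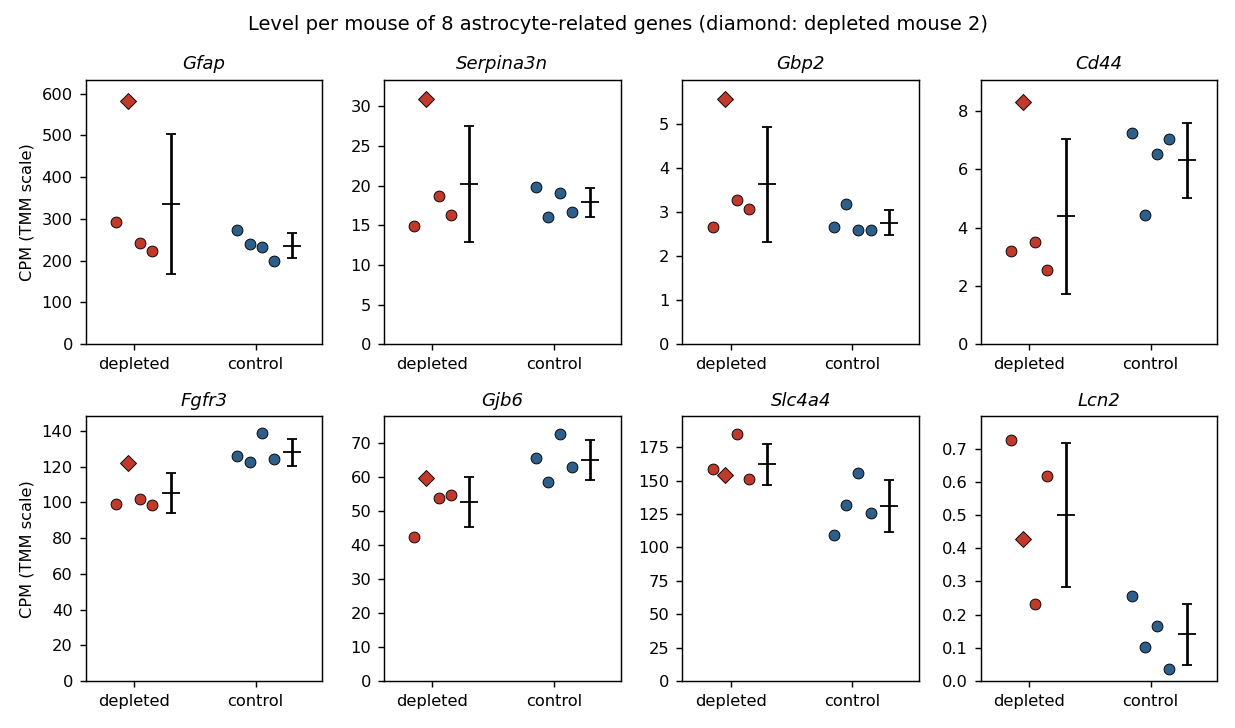
CPM per mouse (y axis, from 0) of 8 members in depleted (red) and control (blue) mice, with the mean and SD of each group beside the points; diamonds are depleted mouse 2. Gfap, Serpina3n, Gbp2 and Cd44 are highest in that mouse, Fgfr3 is the gene without overlap, and Lcn2 stays below 1 CPM.

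Depleted mouse 2 stood apart in many members. It had the highest level of its group in 25 of 36 members, or 69.4%, against 26.8% of all genes tested, and the lowest in 1 member, Timp1. The share was 11 of 16 for identity and 14 of 20 for reactive members. Some other lists shared this trait: the mouse was highest in 21 of 35 further astrocyte genes, 13 of 20 further reactive genes, 10 of 17 signal genes and 8 of 8 leptomeningeal genes. It was highest in 0 of 8 endothelial, 0 of 7 mural, 0 of 7 oligodendrocyte, 0 of 6 ependymal, 0 of 6 choroid plexus and 0 of 10 striatal genes. The count was 2 of 10 for microglial, 2 of 7 for neuronal and 3 of 7 for hypothalamic genes. The mouse was singled out after its values were seen, and members share their libraries, so this is a description. It stood at 247% of the control mean for Gfap, 202% for Gbp2, 172% for Serpina3n and 145% for Aqp4, but at 101% for Glul. Its striatum score and microglial sum (16.7 CPM) were the lowest among depleted mice. Its sum of 8 leptomeningeal genes was the highest among them, at 123 CPM beside 49.3, 67.3 and 56.2 CPM, with 86.9 to 136 CPM in control mice. The sum of 8 endothelial genes, a cell type in which several reactive members are also expressed, was 196 CPM in that mouse, 196 to 251 CPM over depleted mice and 196 to 254 CPM over control mice. What part these play in its astrocyte values was not tested. Across the set the reactive median was -0.13 and the identity median -0.003 without this mouse.

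**Figure D4:**
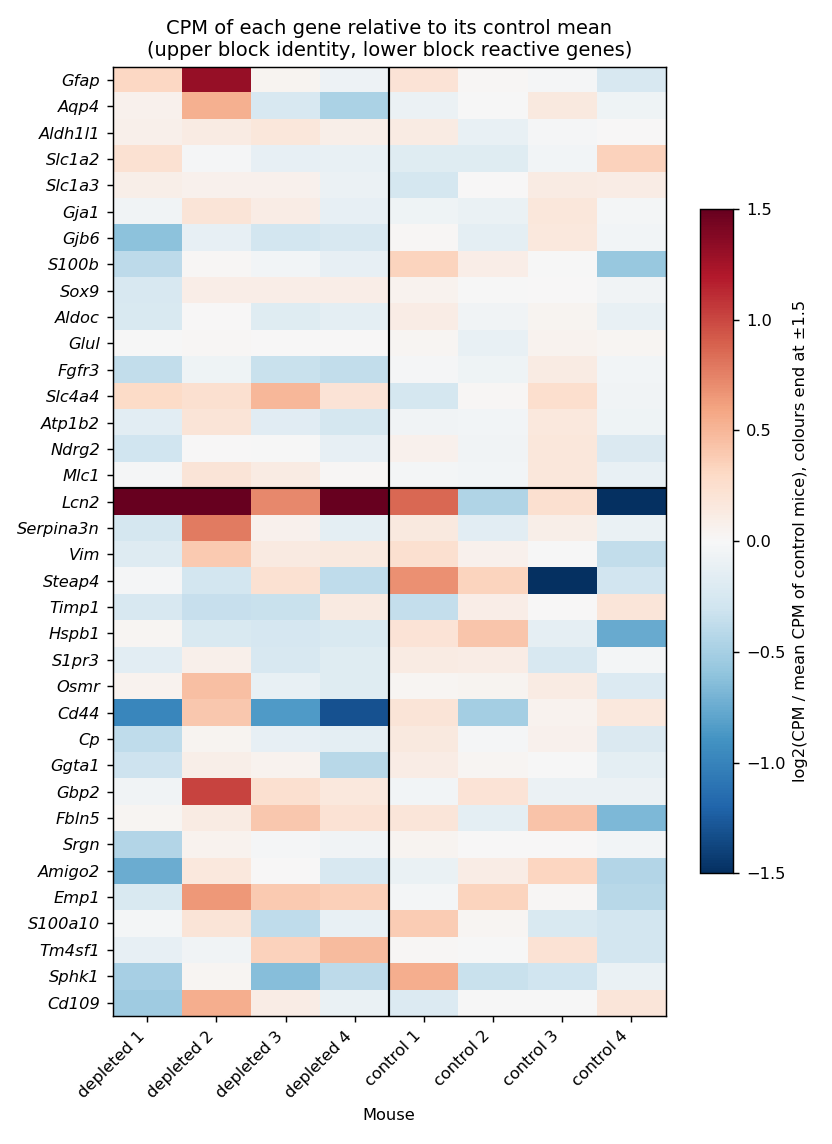
Each gene's CPM relative to its control mean (log2, colour) in the 4 depleted and 4 control mice, identity genes above the line and reactive genes below it. The column of depleted mouse 2 is red for Gfap, Aqp4, Serpina3n and Gbp2, and Lcn2 is above its control mean in all depleted mice and in control mice 1 and 3.

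Several genes of signals that act on astrocytes fell in depleted mice. A list of 21 ligands and receptors had 17 tested genes, of which 7 fell and 0 rose in edgeR, against 1.11% of all genes tested called lower. The complement genes C1qa, C1qb and C1qc fell, with log2 fold changes of -5.39, -5.29 and -5.41 (SE 0.40, 0.29 and 0.45), which leaves 2.39%, 2.55% and 2.35% of the control level. Tgfbr1, the type I receptor gene for TGF-β, had 9.00, 9.52, 8.66 and 9.36 CPM in depleted mice, against 17.1, 18.9, 18.7 and 19.7 CPM in control mice. The groups lay wide apart (log2 fold change -1.03, SE 0.08, adjusted p = 5.60e-05), and Tgfbr1 passed in all 19 alternative fits. The other 3 genes, named after their values were seen, were Il1a (-2.42, SE 0.33), Tgfb1 (-1.30, SE 0.17) and the type II receptor gene Tgfbr2 (-0.55, SE 0.09, adjusted p = 0.0108), the last of which passed in 13 of 19 fits (adjusted p up to 0.477). Tgfbr2 did not pass without control mouse 3 (adjusted p = 0.0606) or depleted mouse 4 (adjusted p = 0.0527). Microglia express all 7 of these genes. Tnf, another A1 signal, had 0, 1, 0 and 0 counts in depleted mice, against 0, 2, 0 and 2 in control mice, too few for a test. Among receptors of the STAT3 route, Il6st stood at 0.08 (SE 0.06) and Lifr at -0.28 (SE 0.12), and neither passed. Of the cytokines, Osm had 0 counts in each depleted mouse, against 3, 10, 6 and 3 in control mice. Il6 had 4, 0, 1 and 2 counts in depleted mice, against 3, 2, 3 and 1 in control mice. Both had too few counts for a test.

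**Figure D5:**
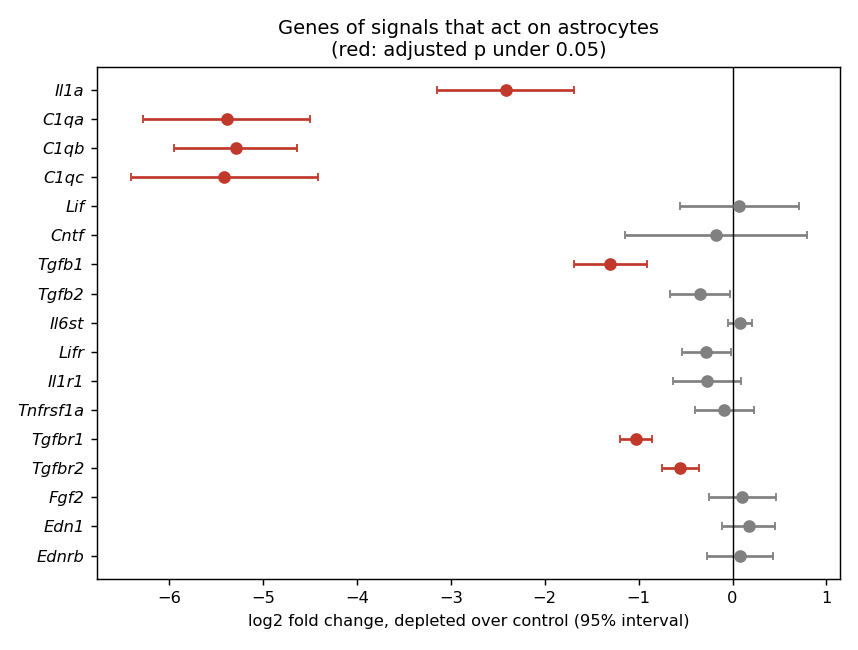
Log2 fold change, depleted over control, with its 95% interval (x axis) for the 17 tested genes of signals that act on astrocytes. The 3 C1q genes, Il1a, Tgfb1, Tgfbr1 and Tgfbr2 (red) passed the test over all genes, all lower in depleted mice.

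Further astrocyte genes were counted beside the members. Of 35 other astrocyte-enriched genes 0 passed in edgeR, and 5, or 14.3%, had an unadjusted p under 0.05, against 11.0% of all genes tested (median log2 fold change -0.07). The smallest p was that of Mfge8, which encodes a secreted bridging protein of phagocytosis, at 141, 137, 141 and 143 CPM in depleted mice, against 160, 166, 157 and 164 CPM in control mice. The groups of Mfge8 did not overlap (-0.21, SE 0.05, adjusted p = 0.133). This held for 1 of the 35 genes, beside 5.77% of all genes tested. Mfge8 passed in DESeq2, which called 1.99% of its genes, but in none of the other 18 fits. Of 22 other genes linked to reactive astrocytes 20 were tested, and Cd14, which microglia express, was the gene that fell (-3.81, SE 0.28; list median -0.12). The transcription factor gene Stat3 (0.12, SE 0.07) and its feedback inhibitor Socs3 (-0.12, SE 0.19) did not pass. Among 8 immediate early genes 0 passed, with the smallest p for Fosb (-0.39, SE 0.22, adjusted p = 0.568).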

How the data were processed

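Bulk RNA of the whole forebrain of 8 mice (4 depleted, 4 control, grouped by title) was analysed. The deposited values were raw read counts for each symbol, with 1 column per mouse. The authors used STAR, FastQC, MultiQC, DESeq and DESeq2 and the mm10 genome, per the submitters' processing notes. The sources used here do not give versions, annotation, counting tool or strand setting.

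After filterByExpr (20140 genes kept) and TMM scaling, depleted and control mice were compared with the quasi-likelihood test of edgeR 4.0.16 in R 4.3.3, adjusted over all genes tested with a threshold of 0.05. SEs were derived from that test's F statistic, and 95% intervals from them. DESeq2 1.42.0 and limma 3.58.1 (voom) were alternatives, beside other scalings, filters, covariates and leaving out each mouse. Means of log2 CPM had a prior count of 2. The steps were also run on simulated counts with known changes, whose recovery is not given here. No pair of libraries of a group was a repeat of the other (mean chi-square per gene at least 12.3). Mitochondrial genes took 4.76% to 6.34% of counts. Counting floors cover counting error only.

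Symbols (93.3% matched), coordinates and merged exon lengths are from GENCODE M21, the same build. Of the 36 members 9 share exon bases with another gene, 7 only with one on the opposite strand, so partner reads may be among their counts.

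All 36 members were named. Of each other list, up to 4 genes that passed were named, or the 1 with the smallest p; further genes were named after their values were seen. Members and lists were chosen with earlier results of these data known.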

Additional observations from a re-analysis of the deposited data

Results flagged for a closer look

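Among 72 groups of 4 values (36 genes, 2 groups), 8 had a single mouse far from the other 3 by Dixon's ratio at its 95% critical value. Chance flags about 1 in 20 groups. In depleted mice, Fgfr3 was high in mouse 2 at 122 CPM (others 98.8 to 102), Cd44 was high in mouse 2 at 8.32 CPM (others 2.55 to 3.49), and Hspb1 was high in mouse 1 at 7.53 CPM (others 6.16 to 6.26). Sox9 was low in depleted mouse 1 at 25.4 CPM (others 31.9 to 32.1) and Slc1a3 was low in depleted mouse 4 at 397 CPM (others 440 to 448). In control mice, Glul was low in mouse 2 at 1288 CPM (others 1415 to 1438), Atp1b2 was high in mouse 3 at 534 CPM (others 458 to 467), and Gbp2 was high in mouse 2 at 3.17 CPM (others 2.59 to 2.67). For Gfap, depleted mouse 2 stayed under the critical value.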

How the results depend on the processing

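In 17 of 19 alternative fits 0 of the 36 members passed. The exceptions were the fit without depleted mouse 2, with 2 lower (Cd44 and Fgfr3), and the 4 mice with fewer than 100 Hcrt counts, with 1 lower (Cd44); leaving out 1 mouse gave 0 to 2 lower and 0 higher. The reactive median of -0.07 became 0.15 with the striatum score as a covariate, and ranged from -0.13 to 0.04 without 1 mouse. The identity median ranged from -0.01 to 0.03 without 1 mouse. With the striatum score, 5 of 36 members had an unadjusted edgeR p under 0.05, beside 813 of 20140 genes tested. These members were Gfap, Serpina3n, Gbp2, Aldh1l1 and Lcn2, all higher in depleted mice. The score itself differed between the groups, so its part and that of the treatment cannot be told apart there. Of 681 fitted member values 52 had the opposite sign, none of them called. Over all genes 223 fell and 11 rose. DESeq2 gave 349 lower and 125 higher, mice with at least 100 Hcrt counts 66 and 0 (951 in both directions at an unadjusted p under 0.05), mice with fewer 128 higher. The higher count was 25 with no filter, 6 with 1 CPM in 4 mice and 2 with the striatum score. Without 1 mouse 178 to 441 were lower and 2 to 243 higher: both upper ends came without depleted mouse 2, the 2 higher without depleted mouse 3, and 5 to 7 higher without control mouse 1, 3 or 4 or depleted mouse 4. The causes were not tested. Over all genes tested, mouse numbers did not consistently pair the groups (correlations of deviations -0.22, -0.17, 0.37 and -0.01). Hcrt did follow the number, with at least 100 counts in mice 2 and 3 of each group. With the number as a replicate block 161 fell, 4 rose and 0 members passed. Il1a and Tgfb1 did not pass within either subset of 4 mice. At 0.0370 to 0.725 CPM, Lcn2 is limited by depth.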

Other observations

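Some astrocyte genes outside the set varied widely among the mice of both groups. Agt, the angiotensinogen gene, which is abundant in astrocytes of the hypothalamus, had 18.8, 94.1, 76.1 and 48.7 CPM in depleted mice 1 to 4, against 89.5, 84.1, 116 and 35.3 CPM in control mice 1 to 4. Slc6a11, the GABA transporter gene GAT-3, had 129, 232, 199 and 141 CPM in depleted mice, against 168, 191, 276 and 121 CPM in control mice. In each group both genes were lower in mice 1 and 4 than in mouse 3, and in depleted mice also lower than in mouse 2; mice 2 and 3 of each group were the ones with at least 100 Hcrt counts. These genes were picked after their values were seen.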
